A study of Glycine max with 36 samples.

Results

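The chalcone synthase (CHS) cluster of soybean chromosome 8 was followed through 36 small RNA libraries as 10 gene models described as chalcone and stilbene synthase family proteins. They are Glyma.08G109200, Glyma.08G109400, Glyma.08G109500, Glyma.08G110300, Glyma.08G110420, Glyma.08G110460, Glyma.08G110500, Glyma.08G110701, Glyma.08G110801 and Glyma.08G110901, taken by their identifiers and not by their values, out of 52872 genes in the table. The libraries came from total RNA of greenhouse plants and held small RNA reads that the authors placed on the transcript models of the genome, by strand. A level is given as RPM, the hits of a gene on both strands per 1e+06 reads of the library.

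CHS catalyses the first committed step of flavonoid synthesis, joining a coumaroyl unit from the phenylpropanoid pathway to malonyl units, and anthocyanin and proanthocyanidin pigments of the seed coat are made downstream of it. In soybean the I locus lies in this cluster, where CHS copies are duplicated and partly inverted. Its dominant alleles are known to give small interfering RNAs that silence CHS messengers of the whole family in the seed coat and leave the coat yellow. Such RNAs are cut by Dicer-like enzymes from double-stranded precursors and arise from both strands.

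Seed coats carrying I came from Richland (I R t, yellow coat), with 3 libraries at 5 to 6 mg seed weight and 1 at 10 to 25 mg. Seed coats carrying i-i came from Williams (i-i R T, yellow coat with black hilum) at 100 to 200, 200 to 300 and 400 to 500 mg, from Clark mi (i-i R t with the mi mutation, whose coat is defective and whose hilum is minute) and from Clark 63 (i-i R T), the Clark coats both at 50 to 100 mg and all with 1 library each. A dry mature Williams coat gave 1 more. Seed coats carrying i came from T157 (i R t, imperfect black coat), with 3 libraries at 5 to 6 mg and 1 at 10 to 25 mg, and from Williams 44 (i R T, black coat), a mutation in Williams, with 1 library at 50 to 75 mg. The other 21 libraries all carried i-i. From Williams they were 7 stages of seedling cotyledons, a leaf of 10 day seedlings, immature and dry cotyledons and 2 immature embryo axes. From Clark and its Lf1 and P1 isolines, which differ in leaflet number and in hairs, came 3 vegetative buds. The same lines gave 4 adult and 2 younger (1 month) shoot tips. No label says that libraries of a group came from separate plants, so p-values measure the spread between these libraries, which may be technical.

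Libraries held 9.50 to 58.5 M reads (M, 1e+06; median 20.4), at which 3 hits correspond to 0.0513 to 0.316 RPM. The stage 2 seedling cotyledon library stood apart, with 0.965 M hits on 1122 genes against 5.74 to 85.3 M hits on 18760 to 34200 genes in the others. Small RNA hits on the green tissue list (150 genes of photosystems, antenna proteins and Rubisco) summed to 280 to 1486 RPM in the 5 i-i immature seed coats and 2.30 to 2377 RPM in the 21 other i-i tissues, ranges that overlap, with the lowest value in the stage 2 library. Small RNA levels of such genes are not messenger levels, and the labelled tissues were not checked further.

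The 10 gene models are so alike that their counts are not separate measurements. All have a coding sequence of 1167 bases, and the transcripts range from 1167 bases, the coding sequence alone, in Glyma.08G110701, Glyma.08G110801 and Glyma.08G110901 to 1626 bases in Glyma.08G110300. Glyma.08G109400 and Glyma.08G110420 had identical hits on both strands in all 36 libraries. Glyma.08G110300 and Glyma.08G110460 had equal totals in 23, and Glyma.08G109200 had equal totals with Glyma.08G110500 and with Glyma.08G110701 in 21 libraries each. The gene with the fewest hits held 88.4 to 99.3% (median 95.4) of the hits of the highest gene in every library with a hit. Hits that the authors' table counts as unique equalled the total hits of each of the 10 genes in every library with a hit, so they do not assign a read to 1 copy. The 10 genes are therefore described below by their mean RPM, called the cluster mean, and by their range, and 10 calls are not 10 independent results.

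**Figure D1:**
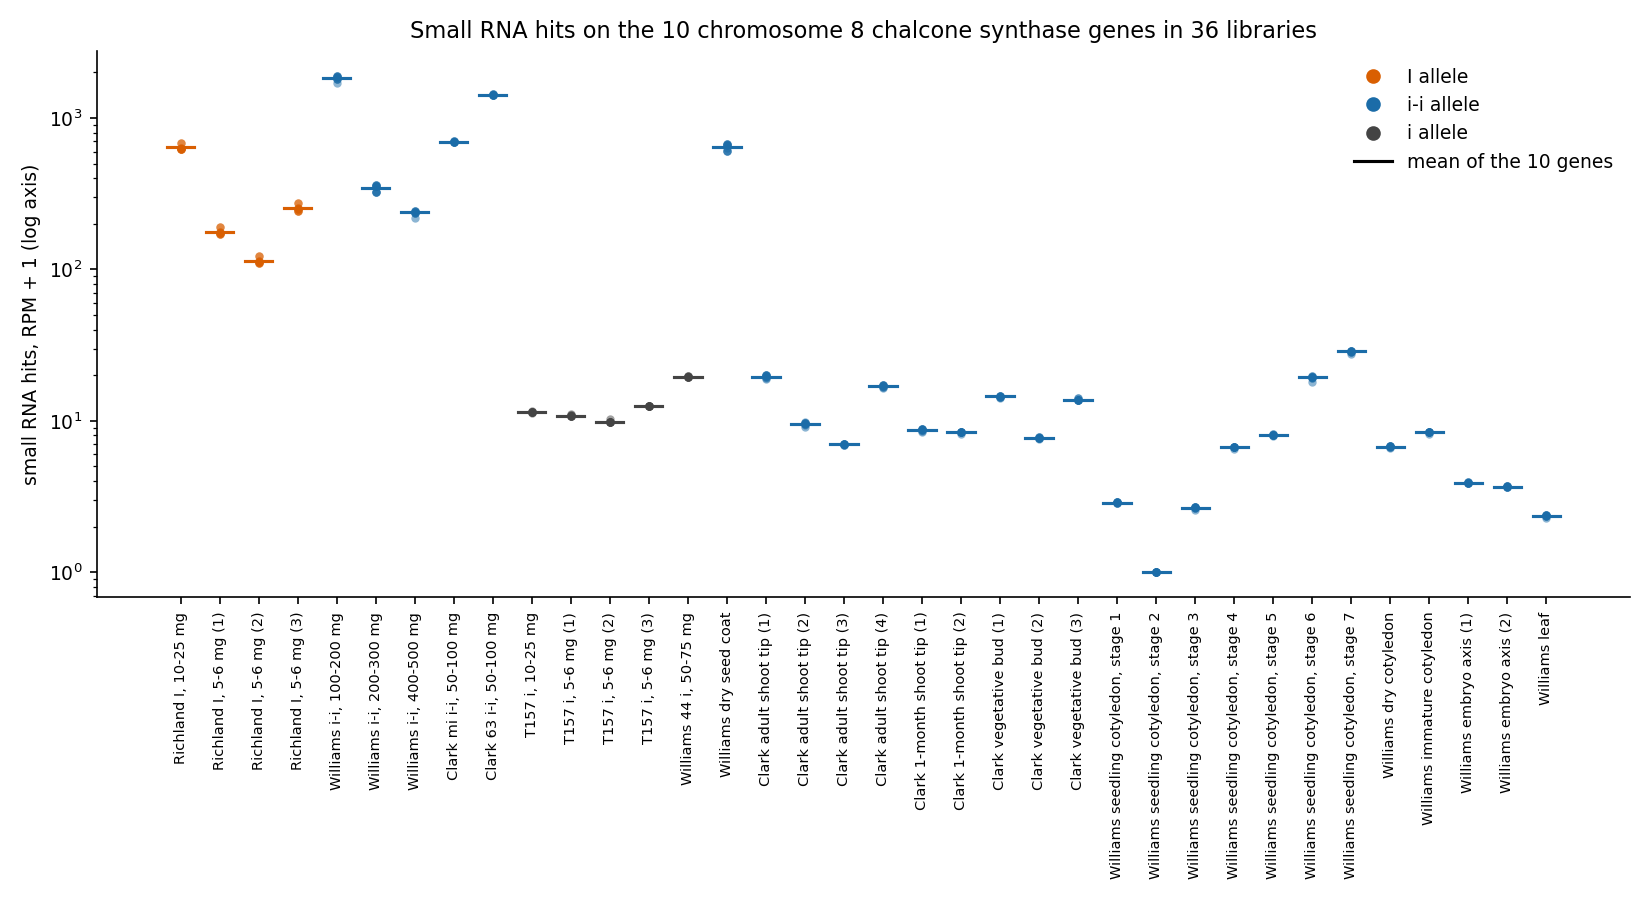
Small RNA level of each of the 10 cluster genes (points) in each library on a log axis of RPM + 1, with the mean of the genes as a bar, by line and tissue. The 9 immature seed coats with I or i-i lie at 112.7 to 1844 RPM, the 5 with i at 8.87 to 18.5 RPM and the 21 other i-i tissues at 0 to 27.7 RPM.

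Small RNAs of the cluster were abundant in every seed coat with I or i-i and scarce in all others. The cluster mean was 1844, 343 and 237 RPM in Williams coats of 100 to 200, 200 to 300 and 400 to 500 mg, 698 RPM in Clark mi and 1429 RPM in Clark 63. Richland coats held 176, 112.7 and 253 RPM at 5 to 6 mg and 638 RPM at 10 to 25 mg, and the dry mature Williams coat 643 RPM. In T157 the coats held 9.83, 8.87 and 11.5 RPM at 5 to 6 mg and 10.4 RPM at 10 to 25 mg, and in Williams 44 the coat held 18.5 RPM. Seed coats with i thus lay among the i-i tissues that are not seed coats, as the plot of levels by library shows.

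Outside the seed coat, the cluster mean was highest in the stage 7 seedling cotyledon (27.7 RPM), 1 adult shoot tip (18.6 RPM) and the stage 6 seedling cotyledon (18.3 RPM). Adult tips held a cluster mean of 18.6, 8.53, 5.98 and 16.0 RPM, tips of younger plants 7.73 and 7.41 RPM, and vegetative buds 13.5, 6.73 and 12.8 RPM. Immature cotyledon held 7.41 RPM, dry cotyledon 5.74 RPM, embryo axes 2.88 and 2.67 RPM, and leaf 1.36 RPM. In the order of group means, neighbours overlapped in range from Williams 44 through adult tips, buds, T157 at 10 to 25 mg, T157 at 5 to 6 mg, seedling cotyledons and younger tips to immature cotyledon. Dry cotyledon, embryo axes and leaf, the lowest in that order, did not overlap each other. A gap between ranges followed the 5 to 6 mg Richland coats, whose lowest library held 112.7 RPM, above the 18.5 RPM of Williams 44 as the next in the order. These are bulk tissues, in which fewer cells of a type and less RNA per cell cannot be told apart.

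Richland was set against T157 at 5 to 6 mg to compare the dominant I with the recessive i allele at equal seed weight. Glyma.08G110300 had 190.0, 121 and 274 RPM in Richland, from 2272, 1540 and 3275 hits, against 9.92, 8.82 and 11.5 RPM in T157. Glyma.08G109200 had 169.98, 109.1 and 242.5 RPM in Richland, against 9.68, 8.82 and 11.5 RPM in T157. Every Richland library was above every T157 library, and the cluster mean was 180 ± 70.0 RPM in Richland and 10.1 ± 1.32 RPM in T157 (SD, n = 3 each), a 17.9-fold difference. The lowest Richland library was 9.82 times the highest T157 library.

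All 10 genes passed the test between Richland and T157 and were higher in Richland, as were 0.65% of the 10761 genes tested. Log2 fold changes ran from 4.39 ± 0.42 (SE) for Glyma.08G109200 to 4.54 ± 0.42 for Glyma.08G110300 (edgeR quasi-likelihood test, Benjamini-Hochberg adjusted p = 6.99e-14 for each). Their median was 4.41, against −0.01 over all genes tested. The groups of all 10 did not overlap, with Richland higher, as held for 1.62% of all genes tested. Of the 70 genes higher in Richland, 19 are CHS genes and 10 of these are the cluster, while 51 genes were lower. With the authors' reads as library sizes, 52 genes were higher and 76 lower. In these 6 libraries the 10 genes carry 6 distinct sets of counts, and the 6 passed when genes of identical counts were merged. With that merging 44 of 9576 genes tested were higher in Richland. Summed hits on the green tissue list were 592 to 693 RPM in Richland and 667 to 708 RPM in T157, and no gene of it passed out of 22 tested (lowest adjusted p = 0.322, 1 with an unadjusted p under 0.05, 0 by DESeq2).

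Heavier coats were sampled once in each line. The 10 to 25 mg Richland library held a cluster mean of 638 RPM, 3.54 times the mean at 5 to 6 mg, and lay above all 3 lighter libraries. The 10 to 25 mg T157 library held 10.4 RPM, 1.03 times the mean at 5 to 6 mg, and lay within the range of the lighter ones. With 1 library for each line at 10 to 25 mg, at which Richland was 61.4 times T157, these differences have no replicate check.

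Over all immature seed coats, the 9 with I or i-i held a lowest cluster mean of 112.7 RPM, a median of 343 RPM and a highest of 1844 RPM, and the 5 with i held 8.87, 9.83, 10.4, 11.5 and 18.5 RPM. The groups did not overlap for any of the 10 genes, with I or i-i higher, as held for 0.196% of the 17303 genes tested, and the lowest library with I or i-i was 6.10 times the highest with i. Group means were 637 ± 609 RPM with I or i-i (SD, n = 9) and 11.8 ± 3.85 RPM with i (SD, n = 5). All 10 genes passed the test and were higher with I or i-i, as were 0.15% of all genes tested. Log2 fold changes ran from 5.38 ± 0.77 (SE) for Glyma.08G109500 to 5.51 ± 0.77 for Glyma.08G110460, with a median of 5.44 against −0.09 over all genes (edgeR quasi-likelihood test, adjusted p = 0.00331 for each). Of the 26 genes higher with I or i-i, 18 are CHS genes and 10 are the cluster, while 10 genes were lower. With the authors' reads as library sizes 15 genes were higher and 0 lower.

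Lines, seed weights and genotypes at other loci differ between and within these groups and cannot be told apart from the I locus there. With Richland and T157 alone (4 against 4) all 10 genes passed (edgeR adjusted p = 0.0185), and 13 of 10354 genes tested were higher. Leaving out any of the 5 to 6 mg T157 libraries raised the edgeR adjusted p to 0.0258 to 0.0299, with all 10 genes passing. Each time 13 genes were higher, of 19782 to 19985 tested.

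Williams 44 is labelled as a mutation of Williams from i-i to i. The Williams 44 coat held 18.3 RPM or more of each cluster gene and a cluster mean of 18.5 RPM, against 1844, 343 and 237 RPM in the 3 Williams coats, so that the lowest Williams coat was 12.8 times the Williams 44 coat. Their seed weights differ, at 50 to 75 mg in Williams 44 and 100 to 500 mg in Williams, and with 1 Williams 44 library no test was made. Clark mi and Clark 63, both i-i at 50 to 100 mg, held 698 and 1429 RPM, a 2.05-fold higher value in Clark 63 with 1 library each.

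The i-i allele was next followed across tissues, setting 5 immature seed coats of Williams and Clark lines against 21 libraries of other tissues. Cluster means were 237, 343, 698, 1429 and 1844 RPM in the seed coats, against a lowest of 0, a median of 7.09 and a highest of 27.7 RPM in the other tissues. Every seed coat was above every other library for all 10 genes, as held for 1.08% of the 20265 genes tested, and the lowest seed coat was 8.54 times the highest other library, the stage 7 seedling cotyledon. Means were 910.0 ± 700 RPM in seed coats (SD, n = 5) and 8.56 ± 6.99 RPM in other tissues (SD, n = 21).

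All 10 genes passed and were higher in the i-i seed coats, as were 6.15% of the genes tested. Log2 fold changes ran from 5.59 ± 0.57 (SE) for Glyma.08G109500 to 5.64 ± 0.58 for Glyma.08G110801, with a median of 5.61 against −0.19 over all genes (edgeR quasi-likelihood test, adjusted p = 2.31e-08 to 2.32e-08). In all, 1247 genes were higher and 715 lower in seed coats, a split that became 1014 and 1421 with RLE size factors, 1072 and 66 with the authors' reads and 1597 and 3686 with DESeq2. Within Williams alone (3 against 12) and, in a comparison added after the values were seen, within Clark alone (2 against 9), all 10 genes passed. The edgeR adjusted p was 0.00121 to 0.00129 in Williams and 1.84e-06 in Clark. Of all genes tested, 454 of 20818 were higher in seed coats within Williams and 1193 of 16082 within Clark. Of 72 tested genes of the green tissue list, 12 were lower in the seed coats and 0 higher in edgeR, with a median log2 fold change of −2.21 against −0.19 over all genes. Of the same genes 38 had an unadjusted p under 0.05, and DESeq2 called 38, of which 1 was higher. The edgeR count became 0 without any of the 3 Williams coats or Clark 63, 1 without Clark mi and 2 with the authors' reads. The part of green tissue in the result for the cluster was not tested.

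Seedling cotyledons gave a series of 7 stages, from imbibed seed to green plantlets. Cluster means were 1.88, 0, 1.67, 5.70, 7.09, 18.3 and 27.7 RPM from stage 1 to stage 7, with 1 library each. Stages 4 to 7 stood above stages 1 and 3, rising in that order. The 0 of stage 2 comes from the library with few hits, where 3 hits correspond to 0.150 RPM. That RPM counts all 19.96 M reads, which gave only 0.965 M hits on genes, so the 0 does not place stage 2 below its neighbours. CHS7 (Glyma.01G228700), a CHS gene outside the cluster, held 2.30, 0, 1.66, 1.08, 1.74, 1.70 and 4.49 RPM over the same stages.

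A linear trend over the stages, added after these values were seen, had a log2 slope of 0.70 to 0.71 per stage (SE 0.27) for the 10 genes. None passed in edgeR's quasi-likelihood test (adjusted p = 0.143 to 0.146), where 3.51% of 12422 genes did. All 10 had an unadjusted p under 0.05 (0.00873 to 0.00926), as did 1613 of the 12422 genes. DESeq2 called all 10 (adjusted p = 0.000174 to 0.000211), among 1535 of 35737 genes. In edgeR the adjusted p was 0.0714 without the stage 2 library and 1.00 with the authors' reads as library size. Under either choice 0 genes in all passed in edgeR. Summed hits on the green tissue list were 186, 2.30, 239, 776, 1716, 1032 and 854 RPM over the stages, and 11 of its 53 tested genes passed with a positive slope. The part of greening, or of any other change between stages, in the values of the cluster was not tested.

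**Figure D2:**
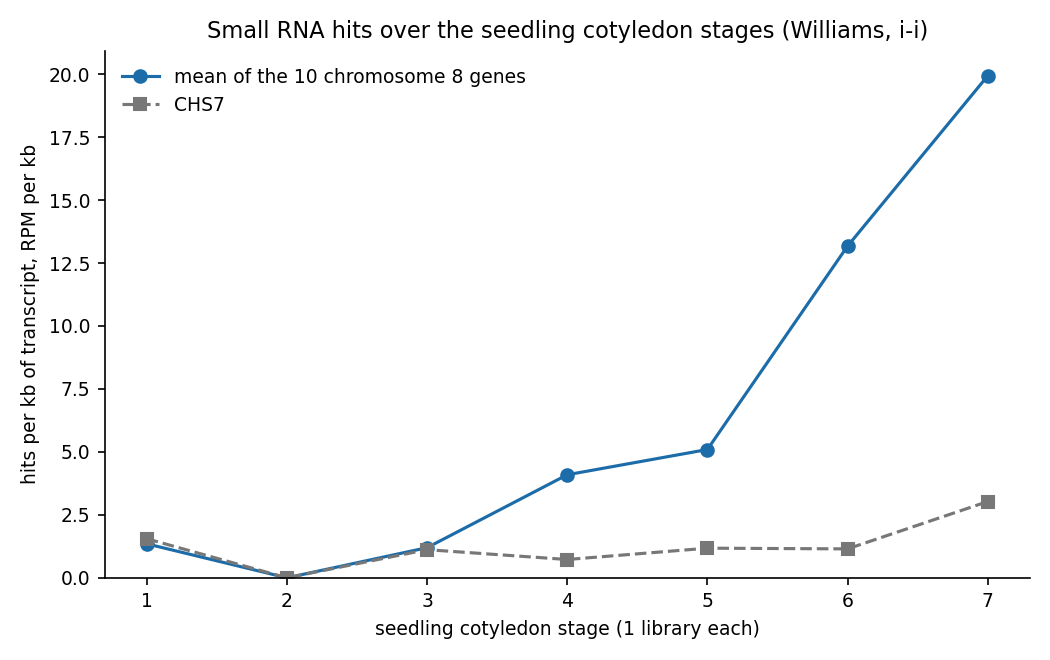
Small RNA level per kilobase of transcript (RPM per kb) over the 7 seedling cotyledon stages, 1 library each, for the mean of the 10 cluster genes and for CHS7. The cluster runs from 1.35 RPM per kb at stage 1 to 19.9 RPM per kb at stage 7 and CHS7 from 1.55 to 3.03 RPM per kb, with both at 0 in the stage 2 library.

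Within the cluster the differences in hits were small and varied between libraries. These differences were chosen for description after the values were seen, and are counts of hits on models of unequal length, not levels per length. Glyma.08G110300 held 6.94 to 8.84% more hits than Glyma.08G110801 in the 3 Richland coats at 5 to 6 mg and 7.53% more in the Richland coat at 10 to 25 mg. The same difference was 0 to 0.794% in the 3 T157 coats at 5 to 6 mg, 0.00543 to 0.231% in the 5 i-i coats and 0 to 2.05% in 20 libraries of other i-i tissues. The excess in Richland was mostly antisense, with 498 antisense and 33 sense hits over the 3 lighter libraries and 970 antisense and 26 sense hits in the heavier. The model of Glyma.08G110801 holds the coding sequence alone, that of Glyma.08G110300 is longer, and the hits were not placed along the transcripts here.

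In Williams coats another pair differed. Glyma.08G109500 held 6.18 to 8.40% fewer hits than Glyma.08G109200 in the 3 Williams coats, a difference of −4289 sense hits and 329 antisense hits in sum. In the 3 lighter Richland coats it held 3.44 to 4.15% more (53 to 120 hits). In the T157 coats at 5 to 6 mg it held 0.676 to 5.71% more, which is only 1 to 6 hits. The difference was −3.84% in the dry Williams coat, −0.0638% in Clark mi and −0.589% in Clark 63. It was −6.55 to 0% (−26 to 0 hits) in 20 libraries of other i-i tissues of both lines. Glyma.08G109400 differed from Glyma.08G109200 by −7.95 to 3.43% in the 3 Williams coats. The signs differ between these libraries, and their sum was a difference of 2504 sense and −2700 antisense hits. No test was made of these differences.

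**Figure D3:**
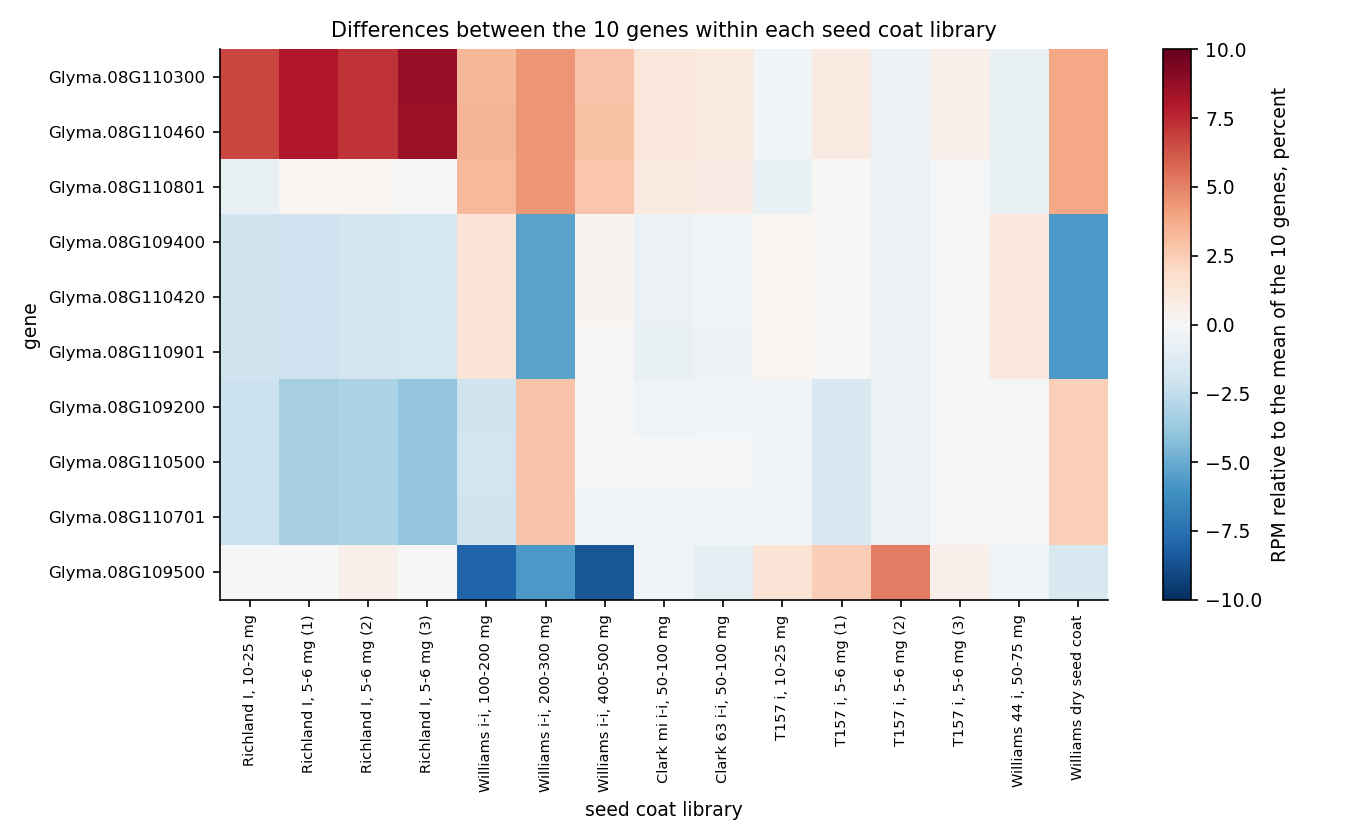
Hits on each of the 10 cluster genes in each seed coat library as the percent difference from the mean of the 10 genes in that library (colour, to 10% on either side). Glyma.08G110300 and Glyma.08G110460 lie above the mean in the Richland libraries, where Glyma.08G110300 exceeds Glyma.08G110801 by 6.94 to 8.84%, and Glyma.08G109500 lies below it in Williams.

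Hits on the cluster came from both strands in the yellow coats and almost wholly from the sense strand in the Williams 44 coat. Taking the 10 genes together, 70.2, 66.3 and 68.98% of hits were sense in Richland coats at 5 to 6 mg and 64.2% at 10 to 25 mg, against 66.8, 55.5, 62.0 and, at 10 to 25 mg, 66.7% in T157. In the i-i coats the share was 57.6, 48.7 and 63.1% in Williams at 100 to 200, 200 to 300 and 400 to 500 mg, 51.0% in Clark mi, 50.1% in Clark 63 and 56.9% in the dry Williams coat. The 20 other libraries with hits held 47.5 to 73.7%.

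In Williams 44, 99.2% of cluster hits were sense. Glyma.08G109200 had 487 sense and 4 antisense hits there, a sense share with a 95% Wilson interval of 97.9 to 99.7%, which covers counting error only. No other library came above 73.7%. CHS7 had 99.8% sense hits in the same library.

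The sense to antisense ratio was compared between groups in a model with each library's own level taken out. Between Richland and T157 the log2 ratio differed by 0.23 to 0.60 over the 10 genes, higher in Richland, with SE of 0.29 to 0.30. None passed (edgeR quasi-likelihood test, adjusted p = 1), where 0.413% of 10400 genes did. Glyma.08G109400, Glyma.08G110420 and Glyma.08G110901 had an unadjusted p = 0.0418 in edgeR, where 394 of the 10400 genes had one under 0.05. DESeq2 called none of the 10. Of the 10 other CHS genes tested, Glyma.09G075200 (1.33 ± 0.29, adjusted p = 0.00587) and Glyma.08G109300 (1.17 ± 0.28, adjusted p = 0.0171) passed in edgeR and none in DESeq2. Both calls were lost without Richland replicate 1 (adjusted p = 0.0896 and 0.169), T157 replicate 2 (0.379 and 1) or T157 replicate 3 (0.0614 and 0.112), and that of Glyma.08G109300 without Richland replicate 3 (0.0758). With no filter on low counts the adjusted p was 0.0514 and 0.127, and with unique hits that of Glyma.08G109300 was 1. Between I or i-i and i coats the log2 ratio differed by −1.02 to −0.73 (SE 0.84 to 0.86, adjusted p = 1, lowest unadjusted p = 0.253). Of the 17227 genes there, edgeR called 0%, 561 had an unadjusted p under 0.05 and DESeq2 called 15, none of the cluster. Without Williams 44 the difference was −0.31 to −0.02.

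Strand shares also varied between copies, over 52.7 to 59.9% in the Williams coat of 100 to 200 mg, 58.4 to 65.2% in that of 400 to 500 mg and 52.7 to 62.1% in the dry Williams coat, and over 60.7 to 72.6% across the 4 Richland coats. In the Williams coat of 200 to 300 mg, 42.0% of the hits on Glyma.08G109500 were sense (95% Wilson interval 41.3 to 42.8), against 47.2% on Glyma.08G109200 (46.5 to 47.9) and 53.5% on Glyma.08G109400 (52.8 to 54.3). The intervals do not overlap but cover counting error only, and reads without molecular identifiers are not independent molecules.

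**Figure D4:**
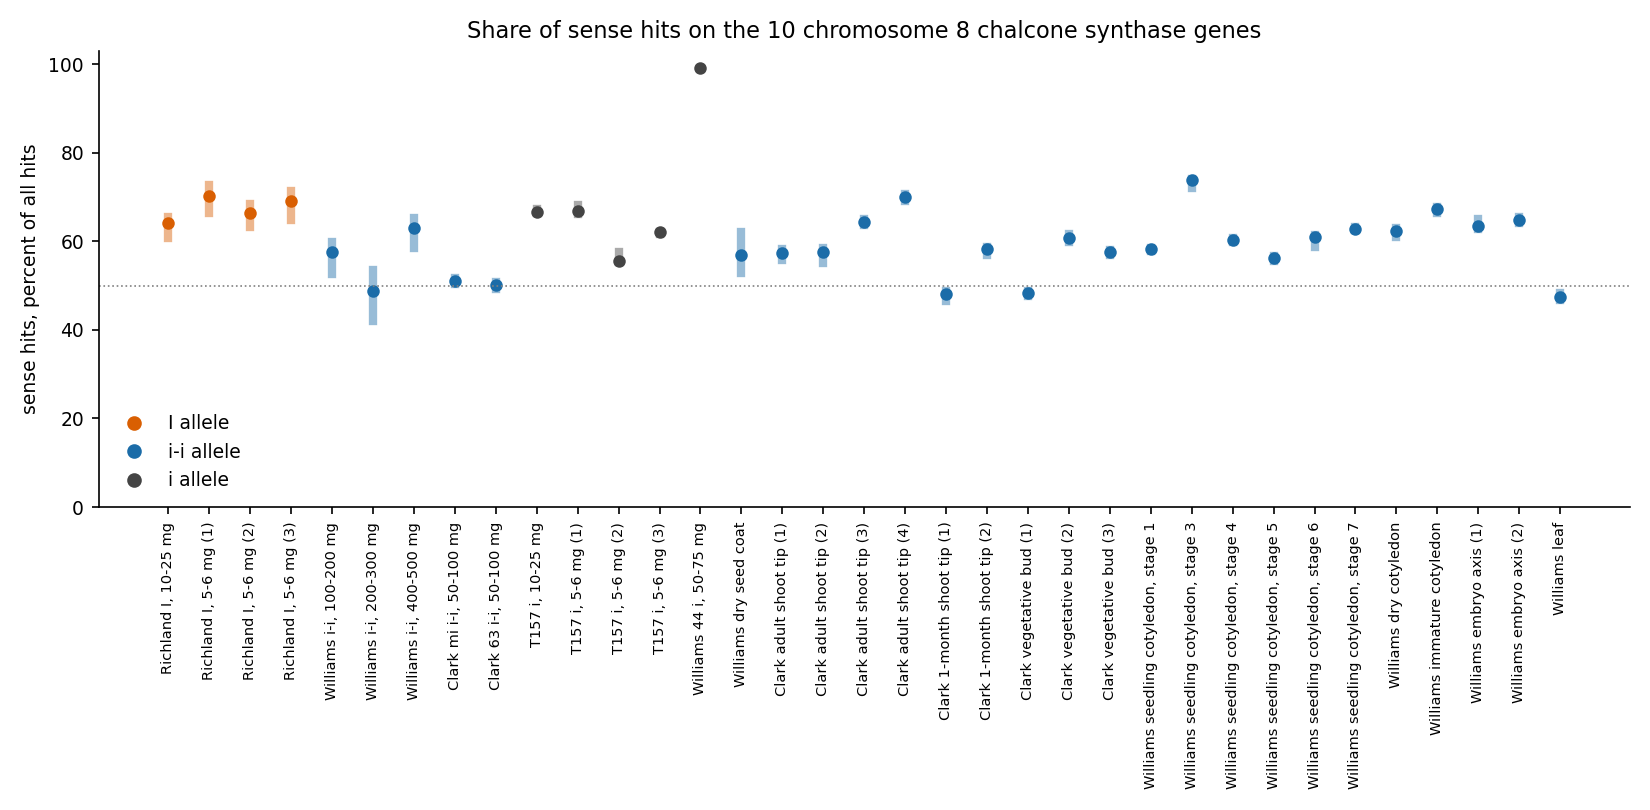
Sense share of hits on the cluster in each library, in percent, with the 10 genes pooled as a point, the range over genes as a bar and a dotted line at equal strands. Williams 44 stands at 99.2%, and the other libraries with hits lie between 47.5 and 73.7%.

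The CHS genes outside the cluster list were higher in the same groups. Of 13 such genes, 9 of 9 tested were higher in Richland than in T157 (median log2 fold change 4.09), 8 of 11 higher with I or i-i than with i (median 4.92), and 9 of 10 higher in i-i seed coats than in other tissues (median 5.01), with none lower. The 8 calls with I or i-i against i became 2 without any of the 5 to 6 mg T157 coats or with no filter, 3 with Richland and T157 alone, 4 with the authors' reads, with sense hits alone or without the Williams coat of 400 to 500 mg, 5 without Williams 44, and 10 with DESeq2. CHS7 and CHS8 (Glyma.11G011500) were higher by 4.69 ± 0.42 and 4.75 ± 0.42 in Richland against T157 (edgeR adjusted p = 2.46e-14 for both). In i-i seed coats against other tissues they were higher by 8.73 and 8.78 (adjusted p = 4.23e-14 for both), against 5.59 to 5.64 for the cluster. The 13 genes include Glyma.08G109300 and Glyma.08G110340, whose locus numbers lie among those of the cluster. In Richland against T157, Glyma.08G110340 had the same log2 fold change and SE as Glyma.08G109200 (4.39 ± 0.42). The 13 genes, CHS7 and CHS8 among them, may share reads with the cluster, so their calls may not be separate results. The difference between the fold changes of CHS7, CHS8 and the cluster was not tested.

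Set per length, the cluster stood above CHS7 in the lighter Richland coats and below it in the i-i coats and in the i coat of Williams 44. The mean RPM per kb of the 10 genes was 1.22, 1.40 and 1.36 times that of CHS7 in Richland at 5 to 6 mg and 0.841 times at 10 to 25 mg, against 2.09, 1.13, 1.61 and, at 10 to 25 mg, 0.878 times in T157. The ratio was 0.339, 0.218 and 0.487 in Williams at 100 to 200, 200 to 300 and 400 to 500 mg, 0.476 in Clark mi, 0.466 in Clark 63, 0.256 in the dry Williams coat and 0.323 in Williams 44. In the 20 other libraries with hits it was 0.779 to 11.5, with the highest value at stage 6 of the seedling cotyledons. All 5 i-i immature coats lay below all 20, a description with no test. Between the seed coats, allele, line and seed weight cannot be told apart for this ratio.

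By mean level in I or i-i immature coats, the cluster stood above its neighbours by locus number that are not described as CHS. That was not so over the i coats or the other i-i tissues, where Glyma.08G110600, described below, averaged above the cluster. In Williams 44 the cluster mean was 18.5 RPM. Glyma.08G109000 held 375 RPM and Glyma.08G109600 451 RPM there, 2 neighbours chosen after their values were seen. The table holds 20 other genes with numbers from Glyma.08G108700 to Glyma.08G111400, of which 2 are also described as CHS. Glyma.08G109300 (a model of 3470 bases) held 662 RPM in I or i-i immature coats and 14.9 RPM in i coats, and Glyma.08G110340 (1167 bases) held 629 and 11.8 RPM. Both passed in all 3 comparisons of levels, with log2 fold changes of 4.09 and 4.39 in Richland against T157, and 5.21 and 5.44 with I or i-i against i (edgeR adjusted p = 0.00331 for both).

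The third by level, Glyma.08G110600, has no description. It averaged 156.6 RPM in I or i-i coats, 36.7 RPM in i coats and 138 RPM in other i-i tissues. Cluster averages there were 637, 11.8 and 8.56 RPM, and 2.83% of the hits on Glyma.08G110600 in I or i-i coats were sense. It did not pass in any of these comparisons, with 0.37 ± 0.37 in Richland against T157 (edgeR adjusted p = 0.987), 1.68 ± 1.04 with I or i-i against i (adjusted p = 1.00) and 0.27 ± 0.54 in i-i seed coats against other tissues (adjusted p = 0.773). Of the 18 neighbours not described as CHS, 11 averaged under 1 RPM in I or i-i coats. In all, 2 of 9 tested neighbours were higher in Richland than in T157, 2 of 9 with I or i-i than with i, and 2 of 11 in i-i seed coats than in other tissues, and these are the CHS genes each time. The beta galactosidase gene Glyma.08G111000, named after its value was seen, was lower in i-i seed coats, where it had 2 hits in all (adjusted p = 0.0183). That call was lost when any of the 3 Williams coats was left out (adjusted p = 0.0528 to 0.0596), within Williams alone (0.0986) and within Clark alone (0.102).

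**Figure D5:**
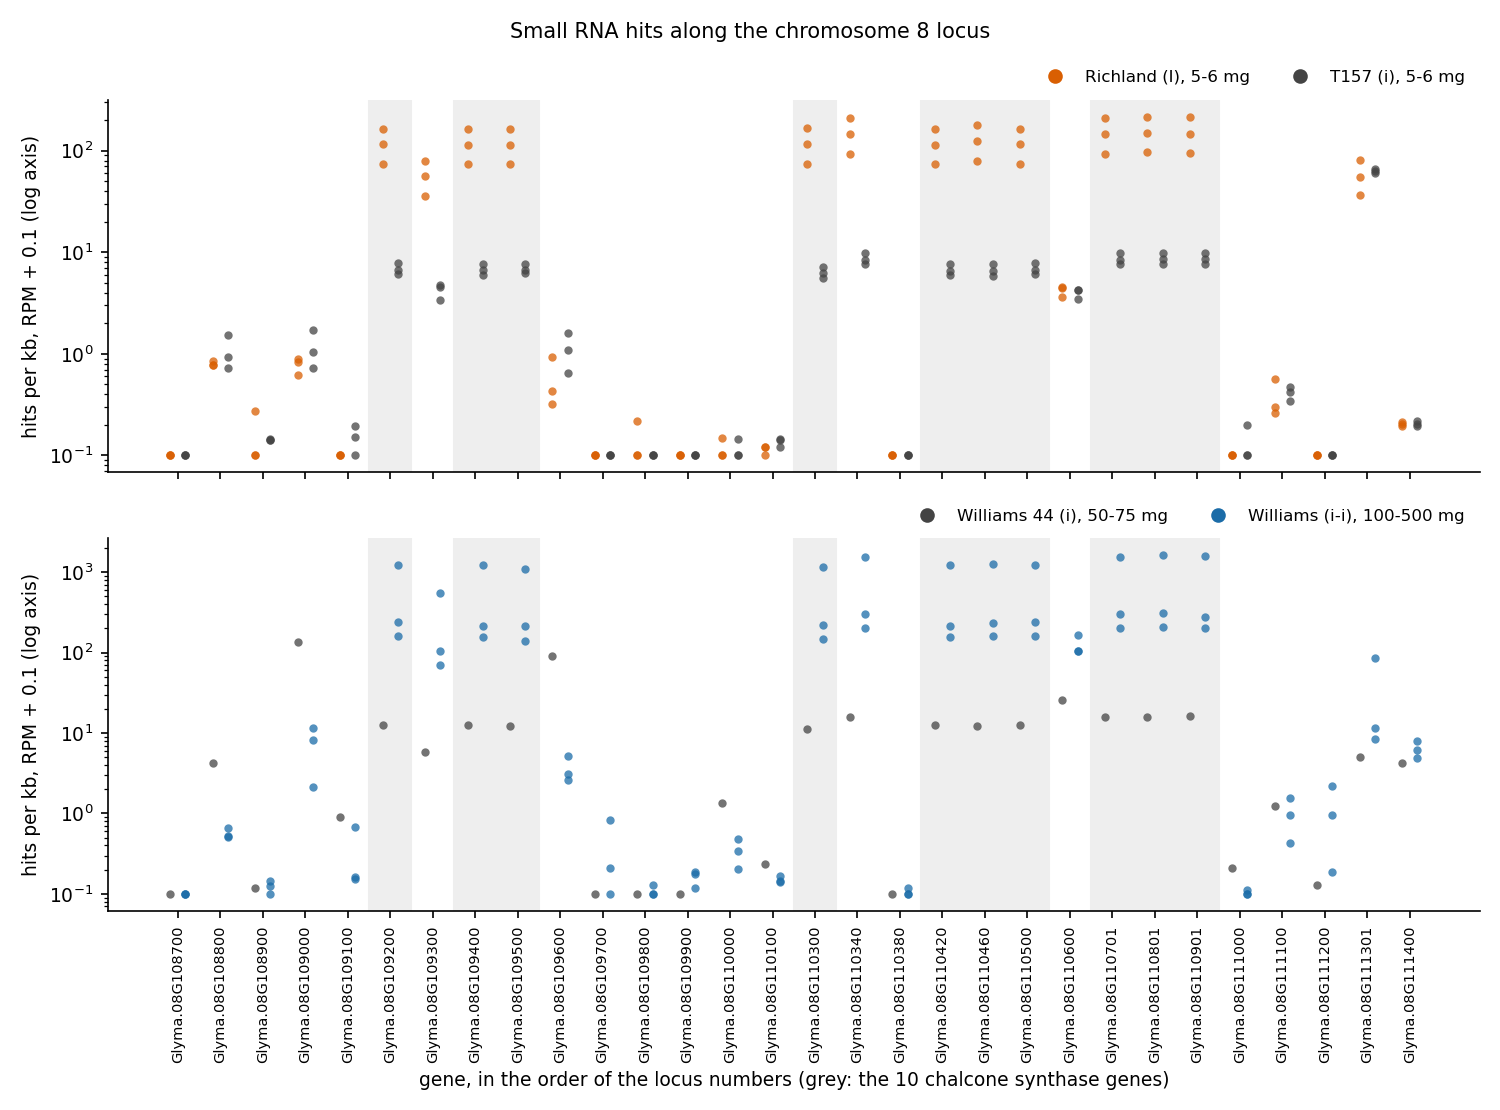
Small RNA level per kilobase (RPM per kb + 0.1, log axis) of the 10 cluster genes (grey bands) and 20 neighbours in order of locus number, for Richland and T157 coats at 5 to 6 mg (top) and Williams 44 and Williams coats (bottom). The cluster and the 2 CHS neighbours are high in Richland and Williams, and 11 of the 18 other neighbours average under 1 RPM in I or i-i coats.

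Small RNAs of 50 genes of the flavonoid pathway other than CHS gave calls only between i-i seed coats and other tissues. None of 9 tested passed between Richland and T157 (edgeR lowest adjusted p = 0.589, 3 with an unadjusted p under 0.05, 0 by DESeq2). None of 16 passed between I or i-i and i coats (lowest adjusted p = 1.00, 0 with an unadjusted p under 0.05, 0 by DESeq2). Of 17 tested between i-i seed coats and other tissues, 3 flavanone 3-hydroxylase genes were higher in the seed coats, where 6.15% of all genes tested were. This enzyme acts after CHS and chalcone isomerase. Glyma.02G048600 was higher by 3.12 ± 0.88 log2, Glyma.02G048400 by 3.06 ± 0.86 and Glyma.16G128700 by 2.86 ± 0.85 (edgeR adjusted p = 0.0247, 0.0248 and 0.0328), while DESeq2 called 3 genes of the list and none higher. All 3 calls were lost with RLE size factors (adjusted p = 0.0515 to 0.0656) and DESeq2 (0.132 to 0.172). They were also lost without the Williams coats of 100 to 200 mg (0.0758 to 0.0800) or 200 to 300 mg (0.0614 to 0.0802) or Clark 63 (0.0745 to 0.105), and that of Glyma.16G128700 without Clark mi (0.0518). Within Clark alone Glyma.02G048600 and Glyma.02G048400 had an adjusted p of 0.0950 and 0.106.

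Genes of seed storage and late embryogenesis proteins, listed as signs of other seed tissue, gave 0 of 39 calls in Richland against T157 (edgeR, 1 with an unadjusted p under 0.05, 0 by DESeq2) and 0 of 62 with I or i-i against i (4 and 1). In i-i seed coats against other tissues 3 of 68 were higher and 1 lower, where 6.15% of all genes tested were higher. The counts of the list became 1 and 0 without the Williams coat of 100 to 200 mg, 2 and 1 without that of 400 to 500 mg, 5 and 0 without that of 200 to 300 mg, 4 and 0 without Clark 63 and 3 and 0 without Clark mi. Over the cotyledon stages 4 of 29 passed with a positive slope, and 0 without stage 2 or with the authors' reads, while the summed hits of the list were 180, 0.902, 144, 120, 116.9, 147 and 160 RPM from stage 1 to stage 7. Of the green tissue list, 0 of 37 passed with I or i-i against i (3 and 0). Their part in the values of the cluster was not tested.

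The genes whose levels ran most like the cluster were other CHS genes. Over 36 libraries and 12135 genes with a mean of at least 1 RPM, Pearson's r between log2(RPM + 1) of a gene and of the summed cluster was 0.988 for Glyma.08G110340, 0.982 for Glyma.08G109300, 0.975 for Glyma.09G075200, 0.946 for Glyma.02G130400 and 0.939 for Glyma.05G153200. Outside CHS the highest were Glyma.17G258600 (thaumatin-like protein, 0.871), Glyma.01G038600 (MYB-like transcription factor, 0.860), Glyma.18G001700 (no description, 0.853) and the auxin response factor 8 genes Glyma.13G221400 (0.847) and Glyma.05G143800 (0.840). These are descriptions with no p, since libraries share lines, tissues and depth, and CHS genes may share reads with the cluster.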

How the data were processed

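Small RNA of 36 soybean libraries was analysed from tables deposited by the authors. Per the file headers, these hold raw counts of hits on 86256 transcript models, total and unique, on the positive and negative strand (taken as sense and antisense), and RPM of CHS7 and CHS8, which equal count over library reads in all 36 libraries. The aligner was Bowtie 1, per the submitters' processing notes. The sources used here do not give the build, the mismatches, the read sizes, what made a hit unique, or the kit and sequencer of each library. Hits of all read lengths enter the counts.

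Each gene was its lowest splice transcript (52872 genes). Levels were compared with edgeR 4.0.16 in R 4.3.3 (quasi-likelihood test, TMM, minimum count 10 and minimum total 15, threshold 0.05 on the Benjamini-Hochberg adjusted p across every gene tested), strand ratios with a strand by group term and the library as a block, and alternatives with DESeq2 1.42.0. The fits were also run on simulated counts in which each gene was drawn on its own. As the 10 members have near-identical counts, that run is no check of their calls. Summaries used pandas 2.3.3, numpy 2.4.6 and matplotlib 3.10.9 in Python 3.11.15. Lists were made from words in the deposited descriptions: other CHS, flavonoid pathway, green tissue, seed storage, and neighbours by locus number. Named were all members, the 3 neighbours of highest level, CHS7, CHS8 and the 2 other CHS genes of smallest p, at most 3 called flavonoid genes per comparison and the 5 genes of highest likeness. Members, lists and rules were chosen with earlier results of these data known. No sequences are printed.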

Additional observations from a re-analysis of the deposited data

Results flagged for a closer look

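Some values lay far from the rest of their group by the gap to the nearest library over the range of the group. Chance alone marks about 1 in 20 of such groups, and 30 groups of values were looked at. That rate holds for libraries that are alike, while the groups named below mix lines, seed weights or stages. Williams 44, at 50 to 75 mg, is the only i coat not of T157, whose coats were of 5 to 6 or 10 to 25 mg. Line and seed weight cannot be told apart for its values. Among the 5 immature seed coats with i, Williams 44 had the highest cluster mean (18.5 RPM, against 8.87 to 11.5 RPM in T157) and the highest sense share of cluster hits (99.2%, against 55.5 to 66.8% in T157). The same library had the highest level of 2 neighbours, chosen after their values were seen. Glyma.08G109000 held 375 RPM there, with 0.0100% sense hits, and Glyma.08G109600 held 451 RPM, with 0.4998% sense hits. In the 4 T157 coats these neighbours held 1.72 to 14.1 RPM and 2.73 to 34.98 RPM.

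Among 6 seedling cotyledon libraries with hits, stage 3 had the highest sense share of cluster hits, 73.7%. Stage 3 held only 50 to 54 hits on each cluster gene, which are not separate measurements. Among all 7, stage 2, the library with few hits, had the lowest level of Glyma.08G109600, 0 RPM.

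The dry mature Williams coat, which entered no comparison, held a cluster mean of 643 RPM, 0.796 times the mean of the 3 immature Williams coats and within their range of 237 to 1844 RPM.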

How the results depend on the processing

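All 10 members passed and were higher between Richland and T157, between I or i-i and i coats, and between i-i coats and other tissues in every alternative run, with each library left out in turn in the first 2 comparisons and each seed coat or the stage 2 cotyledon library in the third, and with 6 distinct genes in place of 10 where identical genes were merged. Their log2 fold changes ran over 4.06 to 4.71, 4.65 to 6.30 and 5.24 to 6.76. Unique hits equal total hits for the 10 members, so that alternative is no separate check of their counts. Adjusted p over the alternatives of the second comparison reached 0.0299 in edgeR. No member passed for strand ratio (0.06 to 0.76, and −1.37 to −0.02). Against a median log2 fold change of −0.01 over all genes in Richland against T157, the authors' reads as library size gave −0.33, and for i-i coats against other tissues they gave 0.58, and RLE size factors −0.51, against −0.19.

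Counts of genes called moved more. In Richland against T157, 121 became 66 with sense hits alone, 75 with antisense hits alone, 75 with identical genes merged, and 99 to 156 with a library left out. For I or i-i against i, 26 genes higher and 10 lower became 109 and 8 with DESeq2, 15 and 0 with the authors' reads, 13 and 0 with no filter, 15 and 6 with sense, 17 and 3 with antisense and 20 and 4 with unique hits, 19 and 3 without Williams 44, 13 and 0 with Richland and T157 only, and 13 to 22 and 0 to 11 with a library left out. For i-i coats against other tissues, 1962 became 5283, 1138, 5389, 1167 and 1135 under DESeq2, the authors' reads, no filter, sense and antisense hits, 584 with Williams only, and 672 to 1279 with a seed coat left out. For strand ratio in Richland against T157, 43 became 5 with DESeq2, 26 with no filter and 14 to 37 with a library left out, and for I or i-i against i, 0 became 15 with DESeq2 and 0 with a library left out. For the cotyledon trend, 436 became 0 without stage 2, 0 with the authors' reads and 1535 with DESeq2, which called 10 members in place of 0. The cause of these moves was not tested.

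Same-numbered Richland and T157 libraries did not deviate in the same direction: their deviations correlated at −0.215, −0.152 and −0.162. Libraries of unlike number correlated at 0.006 to 0.161. With the number as a replicate block 89 genes were called in place of 121, and the 10 members passed (edgeR adjusted p = 1.67e-16 to 2.21e-16).

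Depth limits the low tissues, where 3 hits correspond to 0.0513 to 0.316 RPM. Reads shared between near-identical copies, the kit and sequencer of each library, and stage within groups were not separated here.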
